A study of Mus musculus with 3 samples.

Results

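The transcripts described here are the RefSeq non-coding transcripts (accessions starting with NR_) in RNAseq of mouse 4T1 breast cancer stem cell spheroids (CSCsp), without microRNAs, small nucleolar RNAs (snoRNAs) and other small RNA genes named by their symbol, and without genes that also have a coding transcript. Of 5044 NR_ transcript lines, 1409 were left out by symbol and 696 because their gene also had an NM_ transcript, which left 2939 transcripts of 2453 genes among 47490 transcript lines in all. FPKM, the deposited level per length and depth, was listed at 0 in all 3 libraries for 1588 of them and stayed above 0 but under 1 for 1117. The remaining 234 transcripts of 216 genes had an FPKM of 1 or more in any of the libraries and are described in what follows.

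4T1 is a BALB/c triple-negative mammary tumor line, and its spheroids were enriched by growth for 7 days in ultralow attachment plates without serum. By its label, the library N is from CSCsp kept without co-culture. The label P stands for CSCsp exposed to splenocytes of female BALB/c mice that had carried 4T1 tumors for 28 days (tumor antigen primed), held in buffered saline (DPBS), and the label R for CSCsp exposed to the same kind of splenocytes after reinforced activation with anti-CD3/CD28 dynabeads and IL2. CSCsp were then retained on a strainer, and equal RNA of 4 independent experiments was combined into 1 library per condition, so no difference in this text has a replicate check or a p-value. The file deposited for the library labelled N carries a name that refers to DPBS and that for the library labelled P a name that refers to no treatment. Groups follow the labels throughout, and an exchange of N and P would turn every ratio of P to N and swap the ratios of R to N with those of R to P. Ratios between libraries are written P/N, R/N and R/P.

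Long non-coding RNAs are transcribed and often spliced like messenger RNAs, but most are not known to be translated into a stable protein. Some are found in nuclear bodies, such as Malat1 in nuclear speckles and Neat1 in paraspeckles. Others carry snoRNAs in their introns, come from the imprinted clusters, are transcribed from the opposite strand of a coding gene's start, or are transcribed copies of coding genes (pseudogenes). In immune and epithelial cells several are known to be induced by interferons together with the coding genes of that response.

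Promoter sequences of 6 members are shown because their levels in R stood apart from one or both of the other libraries, and they are compared by motifs known for interferon response. They run from 250 bases before to 50 bases after the annotated start and were taken from RefSeq on GRCm38.p6. Capitals mark the letters TTCNNNGAA (the gamma-activated site, GAS, which reads the same on both strands) and GAAANNGAA or its reverse complement TTCNNTTTC (the core of the interferon-stimulated response element, ISRE).
Gm12216, chr11:53859207-53859506, minus strand: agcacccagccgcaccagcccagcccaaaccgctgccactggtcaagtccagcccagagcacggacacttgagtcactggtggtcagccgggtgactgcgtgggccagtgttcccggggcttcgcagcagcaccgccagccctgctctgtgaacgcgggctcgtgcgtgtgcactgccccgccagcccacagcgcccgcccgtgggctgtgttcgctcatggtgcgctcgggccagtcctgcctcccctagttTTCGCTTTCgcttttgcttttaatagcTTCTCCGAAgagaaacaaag
AW011738, chr4:156203034-156203333, plus strand: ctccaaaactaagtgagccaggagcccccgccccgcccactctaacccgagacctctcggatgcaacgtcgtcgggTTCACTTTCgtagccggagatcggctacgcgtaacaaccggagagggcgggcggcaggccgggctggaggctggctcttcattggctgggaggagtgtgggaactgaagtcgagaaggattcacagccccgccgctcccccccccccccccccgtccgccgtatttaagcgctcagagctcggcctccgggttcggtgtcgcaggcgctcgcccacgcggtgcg
AW112010, chr19:11050517-11050816, minus strand: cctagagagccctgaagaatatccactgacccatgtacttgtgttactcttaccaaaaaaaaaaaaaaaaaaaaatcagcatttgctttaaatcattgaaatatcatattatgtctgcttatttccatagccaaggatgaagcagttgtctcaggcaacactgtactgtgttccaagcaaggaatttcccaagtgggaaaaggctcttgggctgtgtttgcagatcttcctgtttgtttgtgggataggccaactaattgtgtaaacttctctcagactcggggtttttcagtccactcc
9330175E14Rik, chr8:94435054-94435353, minus strand: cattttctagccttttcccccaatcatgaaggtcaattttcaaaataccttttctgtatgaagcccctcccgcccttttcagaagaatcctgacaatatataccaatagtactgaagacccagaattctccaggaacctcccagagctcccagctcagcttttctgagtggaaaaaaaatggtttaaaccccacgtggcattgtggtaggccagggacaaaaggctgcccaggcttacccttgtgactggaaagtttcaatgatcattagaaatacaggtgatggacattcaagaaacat
Malat1, chr19:5802623-5802922, minus strand: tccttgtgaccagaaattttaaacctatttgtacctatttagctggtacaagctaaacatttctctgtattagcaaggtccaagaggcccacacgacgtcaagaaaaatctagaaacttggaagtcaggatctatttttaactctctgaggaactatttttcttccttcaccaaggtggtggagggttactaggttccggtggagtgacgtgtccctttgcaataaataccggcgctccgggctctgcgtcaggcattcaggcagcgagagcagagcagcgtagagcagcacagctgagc
Snhg3, chr4:132353637-132353936, minus strand: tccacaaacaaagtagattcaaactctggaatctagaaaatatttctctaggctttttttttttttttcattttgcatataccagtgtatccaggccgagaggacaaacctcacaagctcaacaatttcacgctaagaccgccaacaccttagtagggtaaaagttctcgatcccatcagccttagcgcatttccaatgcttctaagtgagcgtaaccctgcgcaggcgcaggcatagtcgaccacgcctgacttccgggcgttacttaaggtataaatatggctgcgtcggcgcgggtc
Gm12216 held an ISRE core at position 3 and a GAS at position 30, counted from 0 at the annotated start, and the matches did not overlap. AW011738 held an ISRE core at position -174. No match was found in this window of the other 4, which says nothing of sites elsewhere. Over the 122 distinct member promoters in the table, 7 (5.74%) held a GAS and 7 (5.74%) an ISRE core, against 8.30% and 8.56% of all 32851 promoters. Among the 8 promoters of members at least 2-fold higher in R than in both other libraries, 1 held each motif, and among the 9 of members at least 2-fold lower none did.

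Few of the non-coding transcripts were measured, and most were low. An FPKM of 1 or more in any library was reached by 7.96% of the members and by 41.0% of coding (NM_) transcripts. Their median of mean FPKM over the 3 libraries was 1.70 against 5.87 for the 12267 coding transcripts that passed the same limit. The limit was reached by 139 members in every library, 29 were at 10 or more in every library, and 134 had a mean under 2. Just inside the limit were E130304I02Rik (1.00 in N, 0.697 in P and 0.175 in R) and 5430405H02Rik (0.179, 0.968 and 1.01). Just outside were 2610035D17Rik (0.721, 0.999 and 0.563) and D330041H03Rik (0.427, 0.995 and 0.510).

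Measured members were shorter than coding transcripts and less often spliced. Their median length was 1387.5 bases, from 94 to 20771, against 2919 for the measured coding transcripts. A single exon made up 56 of them (23.9%), against 1.71% of coding transcripts. By gene type in the RefSeq table, 169 were lncRNAs, 44 transcribed pseudogenes, 15 belonged to genes now listed as protein coding, 2 were listed as snoRNAs, 1 as another RNA and 1 as a pseudogene, and 2 (Rn45s and LOC106740) had no match. Clone names ending in Rik were carried by 98 and predicted-gene names (Gm and a number) by 51.

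The position next to coding genes was known for all 234. No coding transcript overlapped 97 of them, and 73 started within 1 kb of a coding start on the opposite strand, the layout of a bidirectional promoter. Another 35 overlapped a coding gene on the opposite strand, 18 shared exon bases with a coding gene on their own strand, and 11 lay inside a coding gene without shared exon bases. Median mean FPKM was 12.7 for the 18 with shared exon bases and between 1.43 and 2.07 in the other classes. Reads in shared exons cannot be told apart from those of the coding gene, and whether counting used strand is not given in the sources used here, so levels of these and of overlapping transcripts are uncertain.

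Depth was alike in the 3 libraries, with between 17887652 and 19178982 fragments estimated from the deposited coverage at an assumed 300 bases each. An FPKM of 1 over 1000 bases then stands for 17.9 fragments in N and P and 19.2 in R. Intervals in this text are exact 95% intervals on fragments and cover counting error only. Blood cell markers differed between the libraries. The summed FPKM of 24 markers, 22 of leukocytes and the haemoglobin genes Hbb-bs and Hba-a1, was 56.5 in N, 1.77 in P and 55.4 in R, with 8, 0 and 10 of the 24 at 1 or more. Without the haemoglobin genes the sums were 52.5, 1.77 and 47.9, and the killer cell gene Nkg7 and Hbb-bs were listed at 0 in all. The labels place no splenocytes with N and splenocytes with P, and the marker sums were high in N and low in P. Whether the labels of N and P are exchanged was not tested. The T cell gene Cd3e was listed at 0 in N and P and at 0.0771 in R, and the monocyte and neutrophil gene Lyz2 at 28.9, 0.313 and 6.51. The macrophage gene Mpeg1 was at 0.697, 0.227 and 24.5. Of 10 epithelial and 4T1 markers, 9 were at 1 or more in every library, and the basal keratin gene Krt5 was listed at 0 in all. The epithelial keratin gene Krt8 was at 651, 554 and 467 FPKM, Epcam at 285, 242 and 245, and the cadherin gene Cdh1 at 84.9, 75.5 and 101. In R/N, 1 of the 9 was past 2-fold higher, the stem cell antigen gene Ly6a (57.9, 37.3 and 654.5), and 1 lower, the basal keratin gene Krt14 (32.3, 33.6 and 14.0). In bulk RNA, fewer cells of a type and less RNA per cell cannot be told apart, and the part of leukocyte RNA in the ratios that follow was not tested. All 19 coding genes of a list of interferon-gamma response genes were at least 2-fold higher in R than in N and than in P, with median log2 ratios of 3.0 and 3.58. For P/N the median was -0.70, with 0 higher and 4 lower of 16 measured. Of all coding genes measured by gene sum, 2.91% were past 2-fold higher and 1.34% lower in R/N. The shares were 4.02% and 1.25% in R/P, and 0.327% and 1.36% in P/N.

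Among the most abundant members were ribosomal and nuclear RNAs and the pseudogene Oaz1-ps. Rn45s, the ribosomal RNA precursor, had an FPKM of 738 in N, 571 in P and 396 in R. Malat1 had 560, 651 and 265, and the short transcript of Neat1 had 327, 262 and 138. R was the lowest library for each of the 3, without a constant order of N and P. Summed over the members, FPKM was 3838 in N, 3737 in P and 2749 in R, or 1.01%, 1.01% and 0.744% of all FPKM. The 4 transcripts of Rn45s, Malat1 and Neat1 gave 1630, 1489 and 802 of it, and the rest 2208, 2249 and 1947 (0.578%, 0.608% and 0.527% of all FPKM). The 5 most abundant members held 57.9%, 56.5% and 49.8% of the sum.

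**Figure D1:**
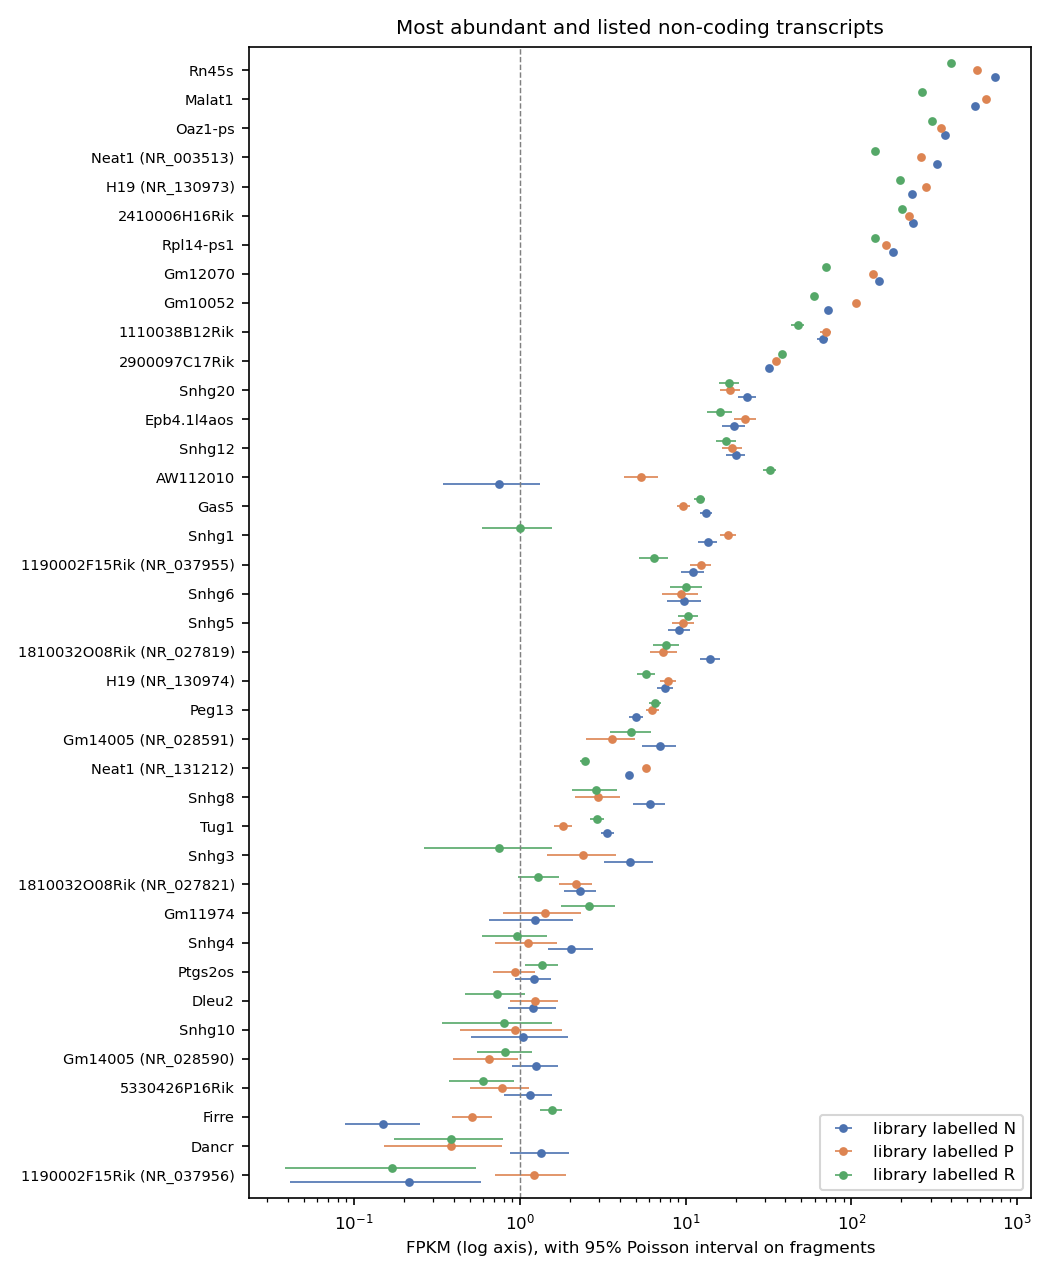
FPKM (log axis) of the 10 most abundant members and of members of the non-coding gene lists by library (N, P and R). Points are single libraries with 95% Poisson intervals on fragments, and the dashed line is an FPKM of 1. Malat1, Rn45s and the short Neat1 transcript were lowest in R, and AW112010 ran from 0.751 in N to 32.1 in R.

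Other abundant members were copies or hosts of other genes. Oaz1-ps, a copy of the ornithine decarboxylase antizyme gene placed in the same locus as Oaz1, had 365, 347 and 308. Rpl14-ps1, a ribosomal protein copy, had 179, 161 and 139, and Gm10052, in one locus with Hnrnpa1, had 72.7, 107 and 59.4. Gm12070, a transcribed pseudogene, had 148, 134 and 70.1, with R/N at a ratio of 0.474 (0.450 to 0.499). Levels of such copies depend on how reads common to copy and parent were divided. The snoRNA host 2410006H16Rik had 234, 224 and 203, and 1110038B12Rik (NR_027943) had 67.3, 70.0 and 47.5. H19, the imprinted RNA that carries miR-675, was at 233, 281 and 197 for its main transcript and at 7.55, 7.82 and 5.76 for the second.

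Nuclear RNAs were compared first. Malat1 (chr19:5795690-5802671) is the only transcript of its locus, and its R/N ratio was 0.473 (0.467 to 0.479) and its R/P ratio 0.408 (0.403 to 0.413). Its promoter is among the sequences shown. Both Neat1 transcripts start at the same place (chr19:5845480, minus strand), and the long one of 20771 bases, which contains the short one, is the one that builds paraspeckles. The long transcript had 4.58, 5.77 and 2.47 FPKM, an R/N ratio of 0.540 (0.499 to 0.585) and an R/P ratio of 0.428 (0.397 to 0.462). Summed over the gene, Neat1 had 372, 296 and 153. P was below N for the short and above N for the long transcript, with P/N ratios of 0.800 (0.783 to 0.817) and 1.26 (1.18 to 1.35). Firre, an X-linked RNA of nuclear organisation, had 0.149, 0.516 and 1.56 for its RefSeq transcript, but 6.63, 8.87 and 8.56 once assembled transcripts of the gene were added. Over the 4 listed transcripts, median log2 ratios were -0.97 for R/N and -1.06 for R/P. By gene sum 2 of 3 genes (Malat1 and Neat1) were at least 2-fold lower in R than in N, and 1 (Malat1) than in P. Of all gene sums, 1.89% and 1.69% were.

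Across all members, ratios were counted past 2-fold on log2(FPKM + 0.1), where one of the compared libraries gave the transcript an FPKM of 1 or more. The added 0.1 understates the ratios of low transcripts. From N to P, 18 of 217 transcripts were at least 2-fold higher and 12 lower, where 4.85% and 5.45% of all 12377 RefSeq transcripts were. From N to R, 22 of 215 were higher and 27 lower, where the shares of all RefSeq transcripts were 7.8% and 6.06%. From P to R, 25 of 218 were higher and 22 lower, against 8.61% and 5.84%. The members' shares were 8.29% and 5.53%, 10.2% and 12.6%, and 11.5% and 10.1%. Median log2 ratios of the members were 0.06 for P/N, -0.05 for R/N and -0.16 for R/P, where coding transcripts had 0.02, 0.09 and 0.06. In the last comparison 83 members were above 0 and 135 below. Past 2-fold, the higher of both values was under 2 FPKM for between 7 and 12 transcripts in each comparison and direction. The counting interval of the ratio left out 1 for 17 of 18 higher and 8 of 12 lower transcripts in P/N, 22 of 22 and 23 of 27 in R/N, and 24 of 25 and 17 of 22 in R/P. The comparisons share libraries, R in the last 2, and are not independent of each other.

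**Figure D2:**
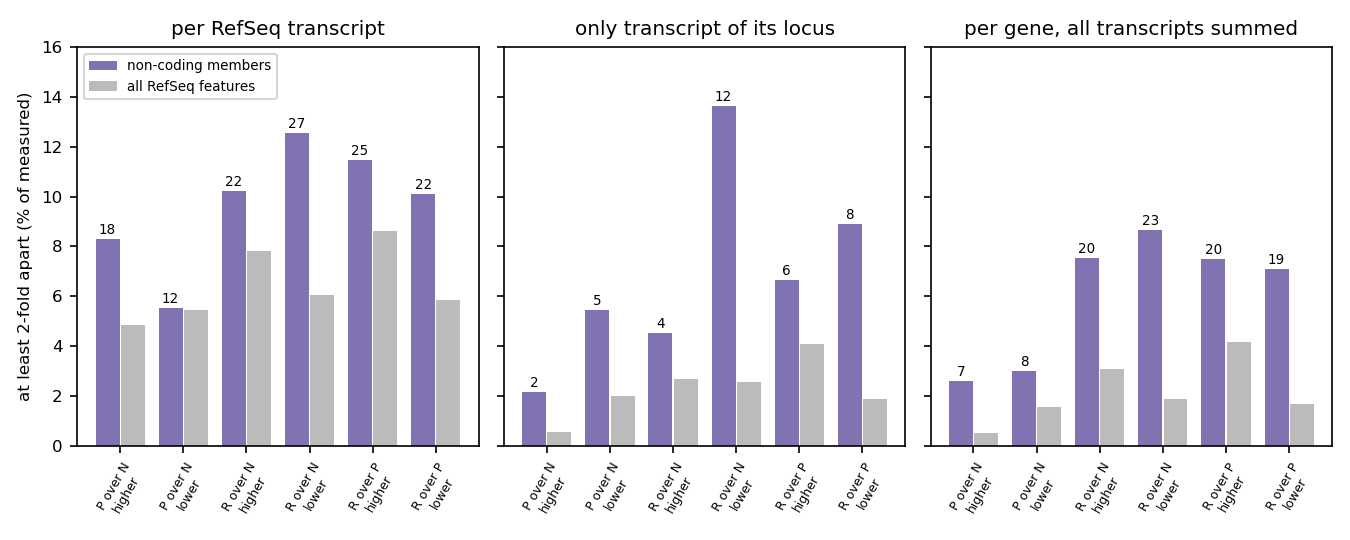
Share (%) of measured non-coding members (purple) and of all RefSeq features (grey) at least 2-fold apart, by comparison and direction, with the number of members on each bar. Panels take each RefSeq transcript, only transcripts alone in their locus, and sums per gene. Sums per gene gave 7 and 8 genes for P/N, 20 and 23 for R/N, and 20 and 19 for R/P.

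Of the transcripts past 2-fold, 16 of 18 higher and 7 of 12 lower in P/N shared their locus with other transcripts. In R/N 18 of 22 and 15 of 27 did, and in R/P 19 of 25 and 14 of 22. For the lower ones this was near the share of all members that did so (138 of 234). In such loci the same reads can be given to another isoform in another library, and its part in the counts was not tested. Only 96 of the 234 members were alone in their StringTie locus, 138 shared it with other transcripts, and 47 with a transcript of another symbol. Among members alone in their locus, 2 of 92 were higher and 5 lower for P/N (background 0.566% and 2.02%). For R/N, 4 of 88 were higher and 12 lower (2.69% and 2.56%), and for R/P 6 of 90 were higher and 8 lower (4.09% and 1.88%). With RefSeq and assembled transcripts summed per gene, 7 of 267 genes were higher and 8 lower for P/N (0.53% and 1.55%). By the same sums, 20 of 266 were higher and 23 lower for R/N (3.09% and 1.89%), and 20 of 267 higher and 19 lower for R/P (4.16% and 1.69%). Of the transcripts past 2-fold, the gene sum was also past it for 6 of 18 and 5 of 12 in P/N, 14 of 22 and 18 of 27 in R/N, and 16 of 25 and 12 of 22 in R/P.

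Examples show how far a transcript and its gene can part. Snhg1, a snoRNA host, had 13.7, 18.1 and 1.00 FPKM for its RefSeq transcript, an R/P ratio of 0.0549 (0.0321 to 0.0882), but 20.0, 22.8 and 13.8 as a gene. Zxda, an X-linked zinc finger copy, had 1.54, 6.96 and 6.23 per transcript and 7.31, 6.96 and 6.23 per gene. The clone 2610001J05Rik had 3.62, 3.70 and 0.363 per transcript and 3.62, 3.70 and 4.46 per gene, and the zinc finger copy Zfp862-ps had 1.05, 0.820 and 0.0428 against 1.90, 2.24 and 2.27. Gm9833, a transcribed pseudogene, had 0.0396, 0.0840 and 1.37, with a ratio of 40.1 (6.83 to 1621) for R/N on 1 fragment in N, against 3.59, 3.88 and 4.36 per gene. Each of these 5 genes was under 2-fold apart by its sum in all 3 comparisons.

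**Figure D3:**
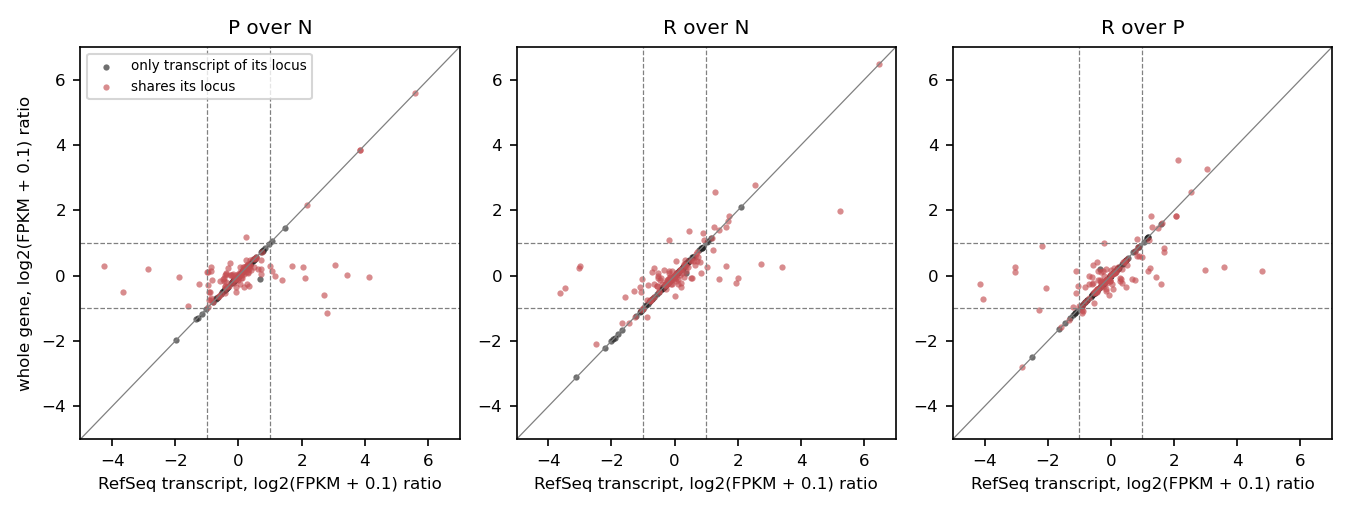
Log2 ratio of each measured RefSeq non-coding transcript (x) against that of its gene with RefSeq and assembled transcripts summed (y), for P/N, R/N and R/P. Dashed lines mark 2-fold, and black points are alone in their locus. Points far to the left or right near y = 0 are transcripts whose gene as a whole was not 2-fold apart.

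A group of members was higher in R than in both other libraries. By transcript these were 16 of 199 measured in both comparisons, where 4.57% of all RefSeq transcripts were higher in both. Of the 16, 4 were alone in their locus, and 12 of the 16, in 11 genes, were also at least 2-fold higher by gene sum. The other 4 were H2-K2, Firre, Gm9833 and 3110039I08Rik. AW112010 (chr19:11047612-11050566, minus strand, no coding gene overlapping), a lncRNA known from activated lymphocytes and macrophages, had 0.751 FPKM in N, 5.42 in P and 32.1 in R. Its R/P ratio was 5.93 (4.64 to 7.67) and its R/N ratio 44.5 (24.0 to 93.4). The gene sum was 8.77, 5.83 and 35.0, since most of the signal in N lay in an assembled transcript, so that the gene was log2 1.98 above N and 2.56 above P, and P was log2 -0.58 from N. The leukocyte marker sum without haemoglobin genes was 52.5 in N, 1.77 in P and 47.9 in R, but single markers moved apart. Of 10 blood cell markers measured in R/N, 2 were past 2-fold higher, Mpeg1 (0.697 in N and 24.5 in R) and Gzmb (0.275 and 1.58). Another 2 were lower, Lyz2 (28.9 and 6.51) and S100a9 (5.74 and 2.03). Of all coding genes, 2.91% were higher and 1.34% lower. The part of leukocyte RNA in the level of AW112010 was not tested.

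Some members overlapped or lay within 100 kb of coding genes of the interferon response that were also higher in R. 9330175E14Rik (chr8:94433127-94435103) does not overlap Nlrc5, the transactivator of MHC class I genes, and their starts lie 37660 bases apart. It had gene sums of 0.782, 0.341 and 5.08, while Nlrc5 had 5.68, 5.75 and 42.8. A930015D03Rik, which overlaps H2-T23 on the opposite strand and is alone in its locus, had 7.28, 6.69 and 15.0, with an R/N ratio of 2.06 (1.63 to 2.63) and an R/P ratio of 2.23 (1.75 to 2.87). H2-T23, a non-classical class I chain whose start lies 38197 bases from that of A930015D03Rik, had 336, 274 and 920. AW011738, which starts 2466 bases from the start of the ubiquitin-like modifier gene Isg15, had 1.80, 1.58 and 3.35, past 2-fold over P only (log2 1.04) and not over N (0.86). Isg15 had 96.2, 63.6 and 226. H2-K2 and H2-Q5, class I copies, had 1.77, 1.26 and 4.22 and 2.53, 1.90 and 4.78, in loci shared with class I genes, so that reads of related genes cannot be told apart from theirs. Their starts lay 21514 and 14482 bases from those of H2-K1 (352, 303 and 1050) and H2-Q4 (210, 185 and 464), both chains of class I molecules. By gene sum H2-K2 was under 2-fold apart in both comparisons, and H2-Q5 (13.6, 11.9 and 33.6) was past it in both.

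For others of the group, the 1 coding gene compared, chosen by overlap or by its start, was less than 2-fold apart or under an FPKM of 1. Gm12216 (chr11:53785489-53859256, alone in its locus), whose promoter window held both motifs, had 0.530, 0.800 and 2.62, an R/N ratio of 4.92 (2.56 to 10.4) and an R/P ratio of 3.38 (1.92 to 6.30). The nearest coding start was that of the carnitine transporter gene Slc22a5, 32447 bases away, with 2.22, 2.36 and 2.79. Coding genes near the far end of Gm12216 were not compared. 4933412E12Rik (NR_038026), which starts 135 bases from Rab3ip on the other strand, had 2.73, 2.00 and 8.62, an R/P ratio of 4.32 (3.26 to 5.81), and Rab3ip, a gene of Rab activation, had 10.1, 7.71 and 12.7. Its second transcript NR_038025 had 0.562, 0.556 and 1.47. Platr22, named for its expression in pluripotent cells and alone in its locus, had 2.92, 2.66 and 6.18, and 9530082P21Rik had 5.07, 4.97 and 11.5. Near Platr22, Gm19705 had 1.17 in P and 3.95 in R but gene sums of 3.91 and 6.56, and the transcription factor gene Zfp281 had 8.65, 7.72 and 14.6. Gm11110, opposite the start of the TNF ligand gene Tnfsf9, had 0.776, 0.593 and 2.81, where Tnfsf9 had 31.0, 30.2 and 17.9.

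The rest of the group were pseudogenes. Gm6548, a single-exon copy alone in its locus, had 8.60, 8.44 and 19.2, with an R/N ratio of 2.23 (1.95 to 2.55). Gm8989 (NR_030720_1), in one locus with the related Gm8979, had 0.146, 0.0730 and 1.34, with a ratio of 9.12 (4.59 to 20.6) over N. Gm7334, which shares exon bases with the antiproliferative gene Btg3, had 8.05, 7.01 and 21.6, where Btg3 had 41.7, 40.9 and 19.6 and was lower in R. Reads of a copy and its parent cannot be told apart where their sequences agree, also where the parent lies in another locus. The levels of Gm6548, Gm8989 and Gm7334 are therefore uncertain.

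**Figure D4:**
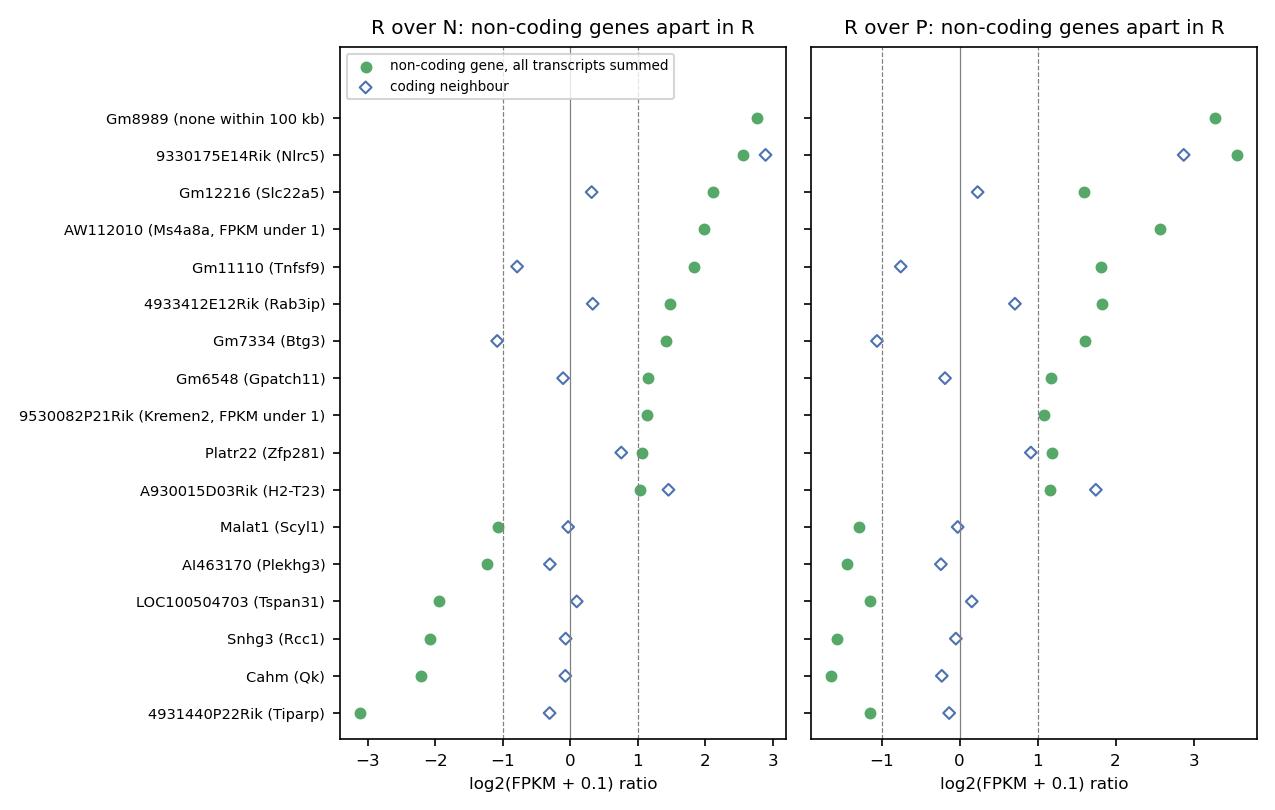
Log2(FPKM + 0.1) ratio of R/N and R/P for the 11 non-coding genes at least 2-fold higher and the 6 at least 2-fold lower in R than in both other libraries (filled, gene sums), with the coding neighbour in brackets (open diamonds, shown where its FPKM reached 1 in a library). Nlrc5 and H2-T23 lie past 2-fold on the same side as their non-coding genes. Btg3 lies past 2-fold on the opposite side from Gm7334 (log2 -1.08 and -1.06). Coding neighbours of the lower genes lie inside the 2-fold lines.

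Members lower in R than in both other libraries numbered 9 of 199 by transcript, where 2.86% of all RefSeq transcripts were lower in both. Of the 9, 5 were alone in their locus, and 6 genes kept this by gene sum. Snhg1, 2610001J05Rik and 1110038B12Rik (NR_015536) were past 2-fold by transcript but not by gene sum. 4931440P22Rik, which starts 967 bases from Tiparp (a mono-ADP-ribosyltransferase gene) on the opposite strand and is alone in its locus, had 13.1 in N, 3.29 in P and 1.43 in R. Its ratios were 0.250 (0.200 to 0.308) for P/N and 0.109 (0.0798 to 0.146) for R/N, and Tiparp had 17.8, 15.8 and 14.4. Cahm, on the opposite strand 558 bases from the start of the RNA-binding protein gene Qk, had 1.95, 1.28 and 0.342, with 0.174 (0.0705 to 0.373) for R/N, and Qk had 16.3, 18.1 and 15.5. Snhg3, a snoRNA host whose promoter is among the sequences shown, had 4.62, 2.42 and 0.744 per transcript, on 36, 19 and 6 fragments, and 5.02, 3.50 and 1.11 per gene. Its locus also holds Rcc1, a regulator of chromosome condensation, and assembled transcripts placed with Rcc1 are not in this sum. AI463170 (1.18, 1.39 and 0.447) and LOC100504703 (2.40, 1.33 and 0.548) rested on at most 14 fragments in any library, and the intervals of AI463170 for R/N (0.116 to 1.32) and of LOC100504703 for R/P (0.0598 to 1.46) include 1.

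Some members were past 2-fold lower in R/N, while R/P was under 2-fold or had both values under 1. A230020J21Rik, opposite the start of Mfsd7b and alone in its locus, had 2.2, 0.807 and 0.516, a P/N ratio of 0.369 (0.221 to 0.598) and an R/N ratio of 0.230 (0.124 to 0.402). D130020L05Rik, antisense to Smek1, had 3.04, 1.62 and 0.886. E230016M11Rik, which starts 808 bases from the stress gene Gadd45a on the other strand, had 1.08, 0.627 and 0.241, and Gadd45a had 145, 115 and 75.7.

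Counted over all members past 2-fold whose coding neighbour reached an FPKM of 1, the neighbour was past 2-fold the same way for 1 of 27 in P/N, 5 of 40 in R/N and 6 of 37 in R/P. It was past 2-fold the other way for 0, 2 and 1. Of all coding genes measured by gene sum, 0.327% were past 2-fold higher and 1.36% lower in P/N, 2.91% and 1.34% in R/N, and 4.02% and 1.25% in R/P. Without neighbours that share exon bases, the counts were 1 of 24, 4 of 35 and 6 of 35 the same way and 0 the other way in each. These counts still include H2-K2 beside H2-K1 in R/N and R/P, and H2-Q5 beside H2-Q4 in R/P. Reads of such class I copies cannot be told apart from those of related genes, so these pairs are not separate observations.

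Most P/N ratios past 2-fold were not past it by gene sum. In Gm16845, transcript NR_040407 was listed at 0 in N, 1.66 in P and 0 in R, NR_040406 at 2.27, 0.540 and 1.84, and the gene at 2.27, 2.2 and 1.84. C130046K22Rik was alike, with NR_102389 at 1.81, 0 and 2.64 and a gene sum of 3.86, 4.74 and 5.29. R74862 had 1.15 in N, 0 in P and 0.360 in R per transcript and 1.15, 0.789 and 0.360 per gene. Gm1976 had 0.00911, 1.09 and 0.0464 against 1.94, 1.98 and 2.13, and 3300005D01Rik had 0.370, 3.85 and 0.857 against 9.83, 12.5 and 9.65. A transcript filed under Trmt61b, the symbol of a tRNA methyltransferase gene, had 0.0801, 1.15 and 0.175 against 3.33, 1.45 and 2.80, so that its gene sum was past 2-fold the other way in P/N (log2 -1.14).

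Other P/N ratios came from pseudogenes and from transcripts that share exons with coding genes. Gm15772, in one locus with the ribosomal protein gene Rpl26, was listed at 0 in N, 4.76 in P and 8.80 in R. That was at least 28.0-fold higher in P and at least 51.9-fold higher in R against a floor of 3 fragments in N. Rpl26, which shares exon bases with it, went the other way, with 10.8, 7.79 and 3.29. How reads were divided between these genes was not tested, so the folds of Gm15772 are uncertain. Gm38431, which shares exon bases with the splicing factor gene Raver1, had 1.65, 7.70 and 5.52. Gm15421, inside Orc5, had 0.0771, 2.46 and 0.911, on 1 fragment in N and 41 in P, a ratio of 41.0 (6.96 to 1659). Gm6402, a single-exon pseudogene inside Btbd9 and alone in its locus, had 1.40, 4.06 and 1.70, with P/N at 2.88 (1.93 to 4.39) and R/P at 0.419 (0.287 to 0.603).

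SnoRNA host genes carry snoRNAs in their introns. Of 20 listed names 18 matched members, with 22 transcripts, 15 of them measured. Per transcript, 0 were higher and 2 (Snhg8 and Dancr) lower in P/N. In R/N, 1 (Gm11974, now named Snhg15) was higher and 4 (Snhg1, Snhg3, Snhg8 and Dancr) lower. Of 13 measured in R/P, 0 were higher and 2 (Snhg1 and Snhg3) lower. The shares of all RefSeq transcripts were 4.85% and 5.45% in P/N, 7.8% and 6.06% in R/N, and 8.61% and 5.84% in R/P. By gene sum, 1 of 16 (Snhg3) was at least 2-fold lower for R/N and 1 of 15 for R/P, where 1.89% and 1.69% of all gene sums were, with medians of -0.11, -0.32 and -0.09 for the 3 comparisons. Within the list, the highest mean FPKM by transcript was that of Snhg20 (23.4, 18.5 and 18.3), followed by Epb4.1l4aos (19.6, 22.8 and 16.1) and Snhg12 (20.0, 19.1 and 17.6). Snhg8 had 6.08, 2.98 and 2.87 per transcript but 62.2, 66.7 and 43.9 per gene. Gas5, the growth arrest RNA that hosts many snoRNAs, had 13.2, 9.70 and 12.2 per transcript and 45.6, 40.6 and 38.1 per gene. Snhg6 was at 9.84, 9.33 and 10.1, Snhg5 at 9.18, 9.67 and 10.3, and the main transcript of 1810032O08Rik (now Snhg16) at 14.1, 7.36 and 7.63. The second transcript of 1810032O08Rik had 2.32, 2.17 and 1.30. Gm11974 had 1.24, 1.42 and 2.62, Snhg4 2.03, 1.13 and 0.968, Snhg10 1.05, 0.936 and 0.808, and Dancr 1.34, 0.382 and 0.383.

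Imprinted non-coding RNAs were represented by H19 and Peg13. Of 11 names 10 matched, and 3 of their 16 transcripts were measured, none of them 2-fold apart in any comparison. Peg13, a paternally expressed RNA, had 5.01, 6.31 and 6.53. None of the 6 transcripts of the X inactivation centre list (Xist, Tsix, Jpx and Ftx) reached an FPKM of 1, and their sum was 0.731 in N, 0.805 in P and 0.717 in R. Of small structural RNAs, 10 of 19 names matched 20 transcripts, and Rn45s was the 1 measured.

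Lists of growth and immune lncRNAs had few measured members. Of the p53, growth and cancer list 14 of 18 names matched, with 6 of 21 transcripts measured. 2900097C17Rik, the mouse Norad gene that binds Pumilio proteins, had 32.0, 35.3 and 38.1. Tug1 had 3.37, 1.82 and 2.93 per transcript and 12.9, 15.5 and 14.4 per gene, and Dleu2, the host of the miR-15a cluster, had 1.21, 1.24 and 0.728. 5330426P16Rik (now Dubr) had 1.15, 0.780 and 0.597. For 1190002F15Rik (now Lockd, downstream of the cell cycle inhibitor gene Cdkn1b), the main transcript had 11.0, 12.3 and 6.43 and the second 0.216, 1.22 and 0.171. That second transcript was the 1 of the list past 2-fold, higher in P/N and lower in R/P, where 4.85% and 5.84% of all RefSeq transcripts were. On the immune list 9 of 13 names matched, with 4 of 11 transcripts measured. Beside AW112010 these were Ptgs2os, antisense to the prostaglandin synthase gene Ptgs2, at 1.22, 0.933 and 1.35, and Gm14005, at 7.01, 3.62 and 4.70 and at 1.26, 0.649 and 0.818 for its transcripts. AW112010 was the 1 of the 4 past 2-fold, higher in all 3 comparisons by transcript and in R/N and R/P by gene sum. Of all RefSeq transcripts, 4.85%, 7.8% and 8.61% were higher in P/N, R/N and R/P, and of all gene sums 3.09% and 4.16% in R/N and R/P.

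Among 16 measured transcripts with pseudogene symbols (ending in -ps), 1 (Apoo-ps) was higher in P/N, 1 (Zfp862-ps) lower in R/N and 1 (Apoo-ps) lower in R/P, with medians of 0.07, 0.04 and -0.22. The shares of all RefSeq transcripts past 2-fold given above (4.85% and 5.45%, 7.8% and 6.06%, and 8.61% and 5.84%) stand beside each of the following counts. Among clone-named transcripts, 6 of 87 were higher and 5 lower in P/N, 8 of 88 and 10 in R/N, and 9 of 89 and 7 in R/P, with medians of 0.01, -0.04 and -0.03. Among predicted genes, 6 of 47 were higher and 2 lower in P/N, 9 of 45 and 2 in R/N, and 8 of 50 and 6 in R/P, with medians of 0.17, -0.01 and -0.19. By position, members without an overlapping coding gene had 6 of 89 higher and 3 lower for P/N, 13 of 89 and 11 for R/N, and 16 of 91 and 10 for R/P. Members opposite a coding start had 5 of 67 higher and 9 lower, 5 of 68 and 11, and 6 of 64 and 6.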

How the data were processed

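RNA of CSCsp was sequenced in 3 libraries, 1 per condition, each from equal RNA of 4 experiments. The authors aligned reads with HISAT2 2.2.0 and estimated transcripts with StringTie (2.1.3 per the labels, 2.1.5 per the file headers) on a merged set of RefSeq and assembled transcripts. The labels name mm9, but 95.4% of 2931 members with a RefSeq gene overlapped it on GRCm38, so coordinates are given on GRCm38. The deposited values per transcript are read coverage, FPKM (coverage scaled to the aligned bases of the library) and TPM.

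Members and gene lists were chosen with earlier results of these data known. Log2 ratios used FPKM + 0.1 where either library reached an FPKM of 1. Fragments were coverage times length over an assumed 300 bases, and exact Poisson and Clopper-Pearson 95% intervals were set on them (SciPy 1.17.1, Python 3.11.15). Assembled transcripts were given to the RefSeq gene of their locus with most shared exon bases. Calculations were tested on simulated data. The text names members of the lists, the 10 highest by mean FPKM, and, with at least 20 fragments in either library, the 10 highest and 10 lowest ratios for R/N and R/P and the 6 for P/N. It also names the coding neighbours and other members 2-fold apart in R from both libraries, or near interferon-response genes. The last 2 kinds were chosen after their values were seen. A coding neighbour shared exon bases, or else started within 1 kb on the opposite strand, or else overlapped. Overlap on the opposite strand came before overlap on the same strand. Of several such genes, that with the highest mean FPKM was taken. Where there was none, the nearest start within 100 kb was used. Alternatives were TPM, other pseudocounts and FPKM minimums, rescaling, gene sums, left-out overlaps, a fragment minimum and exchanged N and P labels. No replicate exists, so no test was run.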

Additional observations from a re-analysis of the deposited data

How the results depend on the processing

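No paired analysis was possible because each condition has 1 library, and for the same reason no replicate could be left out. Depth limits the low members most, and no value has an error between experiments. Counts of transcripts at least 2-fold higher and lower depended on the unit and the minimum. They were 18 and 12 for P/N, 22 and 27 for R/N and 25 and 22 for R/P as reported. With TPM they were 48 and 36, 51 and 74, and 54 and 77, since a TPM of 1 is a lower level here than an FPKM of 1. Without an FPKM minimum they were 85 and 87, 94 and 126, and 99 and 136, and with a minimum of 5 they were 4 and 2, 11 and 8, and 7 and 3. A pseudocount of 1 gave 4 lower for P/N, 14 and 13 for R/N, and 14 and 7 for R/P. At least 20 fragments gave 14 lower for R/P, and gene sums gave 7 higher for P/N. With transcripts alone in their locus, an alternative chosen after seeing the data, the counts were 2 and 5, 4 and 12, and 6 and 8. The median log2 ratio for R/P, -0.16 as reported, was -0.024 without a minimum and -0.047 with N and P exchanged. The median for R/N, -0.05 as reported, was -0.17 with rescaling, -0.15 at an FPKM minimum of 5 and -0.16 with N and P exchanged. It was 0 without a minimum and 0.0096 with TPM. The TPM limit of 1 also changed the members measured for R/N, 466 against 215 as reported, so the effect of the unit alone was not tested. A pseudocount of 0.01, rescaling by median ratios and leaving out same-strand exon overlaps kept all counts within 1.5 times.

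Log2 ratios that changed sign with RefSeq transcripts summed per gene, or with assembled transcripts added, did so because other transcripts of the gene entered the sum. With RefSeq transcripts alone, P/N was 0.29 for C130046K22Rik (NR_102389) and -0.042 for Gm16845 (NR_040407), R/N was -0.060 for 5430405H02Rik, R/P was -0.25 for Gm16845 (NR_040406). With assembled transcripts the values follow. In P/N it was 0.29 for C130046K22Rik (NR_102389), -1.14 for Trmt61b, -0.58 for AW112010, 0.10 for Snhg8, -0.042 for Gm16845 (NR_040407) and -0.070 for Zxda. In R/N it was -0.060 for 5430405H02Rik, 0.29 for 2610001J05Rik, 0.25 for Zfp862-ps and -0.23 for Zxda. In R/P it was 0.90 for Trmt61b, 0.10 for Gm1976, 0.26 for 2610001J05Rik, -0.25 for Gm16845 (NR_040406) and -0.050 for Firre. With N and P exchanged, P/N turns by construction. In P/N it was -5.60 for Gm15772, 4.26 for C130046K22Rik (NR_102389), -3.07 for 3300005D01Rik, -1.48 for Gm6402, -2.80 for Trmt61b, -3.45 for Gm1976, -2.70 for AW112010, 1.34 for A230020J21Rik, 1.97 for 4931440P22Rik, 1.01 for Snhg8, -3.85 for Gm15421, 1.58 for Dancr, -2.06 for 1190002F15Rik (NR_037956), 3.65 for R74862, -2.16 for Gm38431, -4.14 for Gm16845 (NR_040407), 1.89 for Gm16845 (NR_040406) and -2.11 for Zxda. In R/N it was -0.47 for Gm38431 and -0.16 for Zxda. In R/P it was 0.27 for Gm6402 and -0.29 for Gm16845 (NR_040406).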
